A study of Homo sapiens with 6 samples.

Results

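POLQ, SHPRH and REV1 are 3 of the 3152 RNAs that the authors listed as pulled down with PD-L1, and they were picked by name from that table. They were known beforehand as the RNAs with the widest gap between PD-L1 and IgG scores among the translesion synthesis genes. Their scores in this contrast are therefore given as a description, with no test. All 3 are also on the authors' deposited list of 207 DNA damage genes, where the POLQ entry carries the symbol of POLH beside its own. Their Entrez identifiers in the main table (10721, 257218 and 51455) settle which genes were scored.

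The study used RNA immunoprecipitation, in which a protein is captured from lysate by its antibody and the RNA attached to it is sequenced. The cells were MDA-MB-231, an established human line of triple-negative breast cancer. Lysates of formaldehyde-fixed, sonicated cells were incubated either with an antibody against PD-L1, which binds the receptor PD-1 on immune cells, or with its IgG isotype as control, and each arm has 3 libraries. No other treatment or genotype is labelled. The labels do not say whether the libraries of an arm came from separate cultures, so their spread may be technical. Each value is a sum of peak scores per gene and library, as the authors made it, and an RNA at 0 had no scored peak, which need not mean no reads. The files do not hold read depth, so values carry no counting interval. Summed over the listed RNAs, the scores ran from 123921 to 217732 in the PD-L1 libraries and from 8353 to 19288 in the IgG libraries. The authors kept RNAs at least 5-fold above IgG, so the direction of every difference was fixed by the selection. Of 9 markers of mesenchymal breast cancer cells only ZEB1 was listed, and 0 of 16 epithelial, immune and stromal markers were, but a list selected for enrichment does not show what the cells express.

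Translesion synthesis lets a replication fork copy past a damaged base. The sliding clamp PCNA is ubiquitylated at a stalled fork, and specialised polymerases with low fidelity are then recruited to the clamp. REV1 is a Y-family polymerase that inserts cytosine opposite lesions and serves as a scaffold for the other translesion polymerases. SHPRH is a RING-type ubiquitin ligase and helicase-like protein, related to yeast Rad5, that extends ubiquitin chains on PCNA. POLQ encodes DNA polymerase theta, an A-family polymerase joined to a helicase domain, which performs end joining through short matching sequences and can also copy past lesions.

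The transcripts of the 3 genes were long and rich in A and U, that of REV1 the least so. The stretch of coding sequence richest in these bases is shown for each to make that composition visible. Each stretch has 90 bases, lies within 1 exon and is the first of any equal ones. The letters come from GENCODE 29 transcripts on GRCh38, with T for U, read 5′ to 3′ on the minus strand of the chromosome. Capitals mark runs of 6 or more A or T. The peak positions were not analysed here, so these stretches are not binding sites.
POLQ, exon 16 of 30, chr3:121490083-121490172: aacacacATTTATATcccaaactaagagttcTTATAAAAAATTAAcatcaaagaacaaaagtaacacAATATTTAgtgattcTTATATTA
SHPRH, exon 7 of 30, chr6:145946240-145946329: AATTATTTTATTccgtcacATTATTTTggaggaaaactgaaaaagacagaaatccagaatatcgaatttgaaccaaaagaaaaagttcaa
REV1, exon 22 of 23, chr2:99402245-99402334: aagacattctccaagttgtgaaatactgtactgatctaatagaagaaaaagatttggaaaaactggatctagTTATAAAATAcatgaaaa

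A and U made up 77.8% of the POLQ stretch and 72.2% of those of SHPRH and REV1. For comparison, the richest stretch of equal length was sought across joined coding exons, with no limit to an exon. Its median was 68.9% over the 3129 listed RNAs with a coding transcript model and 60.0% over 16152 other coding genes. This wider search can only give equal or higher values, so the stretches of POLQ, SHPRH and REV1 were not favoured by it. A longer coding sequence gives more stretches to choose from, so the whole coding sequence is the fairer comparison. It held 58.9% A and U in POLQ, 57.5% in SHPRH and 56.9% in REV1, against a median of 54.0% over the listed RNAs and 45.8% over the other coding genes. Runs of 6 or more A or U covered 9.60% of the coding bases of POLQ, 8.19% of SHPRH and 6.50% of REV1. The median was 6.07% over listed RNAs and 2.01% over the others. On each of these measures the 3 RNAs thus lay above the typical listed RNA, and the listed RNAs lay above the other coding genes. REV1 was near the middle for runs, where 54.0% of listed RNAs had a lower share, against 79.2% for POLQ and 68.7% for SHPRH.

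With PD-L1, POLQ had the highest scores of the 3 RNAs, at 236, 221 and 110 in replicates 1 to 3. Its IgG scores were 0, 0 and 2.57. The groups did not overlap, and the lowest PD-L1 score, in replicate 3, was far above the only IgG score. The mean PD-L1 score was 189 ± 68.9 (SD, n = 3), 221 times the IgG mean of 0.857. The difference between the group means of log2(score + 1) was 6.88, a scale on which changes of low scores appear smaller than they are. That was 3.46 above the median difference of the table, which was 3.42.

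SHPRH came close to POLQ in PD-L1 replicates 1 and 2, at 223 and 216, and was at 57.0 in replicate 3. Its IgG scores were 0, 2.31 and 0. The groups again did not overlap, but the PD-L1 libraries spread more widely than for POLQ, with a mean of 165 ± 93.7 (SD, n = 3). The ratio of means was 214 and the log2 difference 6.57.

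REV1 scored lower, at 102, 116 and 53.1 in the PD-L1 libraries. Its IgG scores were 0, 0 and 2.83. The mean was 90.3 ± 33.1 (SD, n = 3), the ratio of means 95.7 and the log2 difference 5.79. POLQ stood above SHPRH and SHPRH above REV1 in each of the 3 PD-L1 libraries. In replicate 3 SHPRH and REV1 were 57.0 and 53.1, a gap much smaller than the spread of either RNA between libraries. Complete separation of the groups, seen for all 3 RNAs, was also seen in 95.9% of the table, and the choice of these RNAs fixed it.

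**Figure D1:**
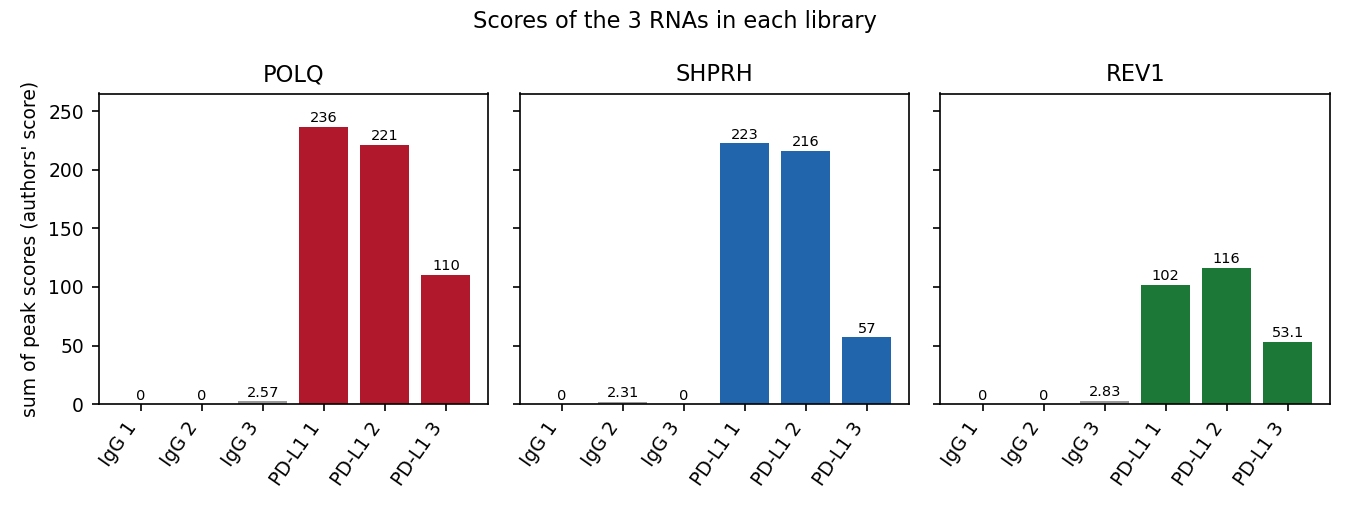
Sum of peak scores (vertical axis, linear) of POLQ, SHPRH and REV1 in the 3 IgG libraries (grey) and the 3 PD-L1 libraries (coloured), 1 bar per library with its score above it. Each RNA has 1 IgG score above 0, between 2.31 and 2.83, and its lowest PD-L1 score in replicate 3.

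The IgG side of all 3 ratios rested on 1 library each. Within a library, 98.9% to 100% of the scores above 0 and under 10 were whole steps of 1 size (tolerance 0.015), and the steps of IgG replicates 2 and 3 were 0.257 and 0.258. The lowest score above 0 was 2.06, or 8 steps, in both. SHPRH's 2.31 was 9 steps, POLQ's 2.57 was 10 steps and REV1's 2.83 was 11 steps. Of the scores above 0 in IgG replicate 2, 5.26% were at or below that of SHPRH. In IgG replicate 3, 14.6% were at or below that of POLQ and 20.7% at or below that of REV1. The 3 IgG scores thus lay near the lowest that the table holds. Likewise, 656 listed RNAs had 1 IgG score above 0, and 1000 had none. Among the 2152 RNAs with any IgG score POLQ ranked 2, SHPRH ranked 3 and REV1 ranked 29 by ratio of means. With the library of its lone score left out, each RNA is at 0 in both IgG libraries that remain and no ratio can be given.

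Measured by log2 difference, POLQ ranked 10, SHPRH ranked 25 and REV1 ranked 101 of 3152. TEKT2, a ciliary tektin gene, stood next above POLQ at 6.88 and SNX13 next below at 6.84. SHPRH lay between SLCO1B3 at 6.58 and ATAD2B at 6.54, and REV1 between ZNF215 at 5.82 and PIK3CB at 5.79. Of these 6 neighbours, TEKT2, SNX13, SLCO1B3, ATAD2B and ZNF215 had 0 in every IgG library, and their PD-L1 scores were lower than those of the RNA beside them except in replicate 3 for ZNF215. By mean PD-L1 score alone POLQ ranked 169, SHPRH ranked 223 and REV1 ranked 587, so the height of their ratios came with the low IgG scores as well as with the PD-L1 scores.

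PD-L1 replicate 3 stood apart from the other PD-L1 libraries for all 3 RNAs. It was also lower over the table as a whole, with a sum of 123921 against 206525 and 217732 in replicates 1 and 2. POLQ in replicate 3 had 48.2% of the mean of replicates 1 and 2, REV1 had 48.7% and SHPRH 26.0%. Over the table the median was 71.5% (quartiles 42.9% and 109%), and 70.4% of RNAs were below 100%. Only 10.8% of listed RNAs had a smaller share than SHPRH. Replicates 1 and 2 differed little by comparison, since replicate 2 had 93.6% of the replicate 1 score for POLQ, 97.0% for SHPRH and 114% for REV1.

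Of the 3 RNAs, SHPRH changed place most between that library and the other PD-L1 libraries. Its score ranked 170 and 205 of 3152 in PD-L1 replicates 1 and 2, and 602 in replicate 3. POLQ ranked 152, 192 and 224, and REV1 ranked 589, 536 and 659. REV1 and POLQ thus also had their lowest place in replicate 3, but by a smaller step than SHPRH. From replicates 1 and 2 alone the ratio to the IgG mean was 285 for SHPRH, above 267 for POLQ, and 115 for REV1. From replicate 3 alone the ratios were 74.0, 129 and 56.2 in the same order. Without PD-L1 replicate 3 the log2 differences were 7.21 for SHPRH, 7.23 for POLQ and 6.13 for REV1. The 0.32 by which POLQ led SHPRH over all libraries was then nearly gone. The order of SHPRH and POLQ moved more with the libraries of their lone IgG scores. Without IgG replicate 2 SHPRH was at 7.14 and POLQ at 6.58, and without IgG replicate 3 SHPRH was at 6.28 and POLQ at 7.50. In PD-L1 replicate 3, 0 listed RNAs were at 0 and the lowest score was 3.72. PD-L1 replicates 1 and 2 had 24 and 19 RNAs at 0, and lowest scores above 0 of 2.02 and 1.81. What set PD-L1 replicate 3 apart was not tested.

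**Figure D2:**
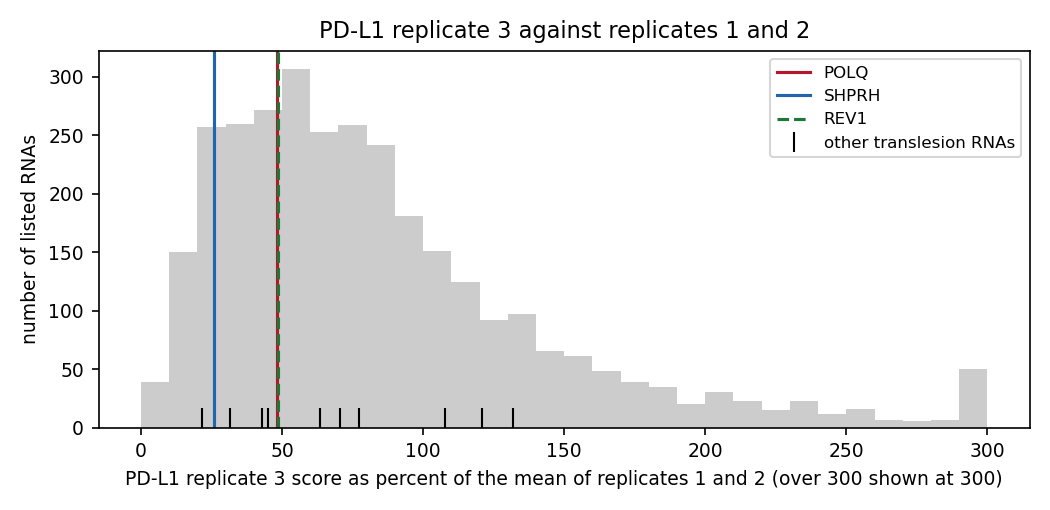
Number of listed RNAs (vertical axis) by their PD-L1 replicate 3 score as a percent of the mean of replicates 1 and 2 (horizontal axis, values over 300 shown at 300). Coloured lines mark POLQ (48.2%), REV1 (48.7%) and SHPRH (26.0%), and black ticks the 10 other listed translesion RNAs, which run from 21.5% to 132%.

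The lengths of the 3 transcripts differed, and a sum over peaks can grow with length. POLQ has a transcript of 8775 bases with 30 exons, SHPRH 7201 bases with 30 exons and REV1 4751 bases with 23 exons, in the principal transcript models of GENCODE 29. The listed RNAs had a median of 3996 bases and 12 exons and the other coding genes 2572 bases and 7 exons. Coding sequence made up most of each model, at 7773, 5052 and 3756 bases, while the 3′ untranslated regions had 873, 1884 and 766 bases against a median of 1399 over the listed RNAs. These RNAs were thus long through their coding part, and for POLQ and REV1 the 3′ untranslated region was shorter than the median.

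Per length, the order of the 3 RNAs was not the order of their scores. The mean PD-L1 score per 1000 transcript bases was 21.6 for POLQ, 22.9 for SHPRH and 19.0 for REV1. In replicates 1 to 3 it was 26.9, 25.2 and 12.6 for POLQ. It was 30.9, 29.97 and 7.92 for SHPRH, and 21.4, 24.5 and 11.2 for REV1. The ranges of all 3 RNAs overlapped, and the lead of POLQ over REV1 shrank from 2.10-fold in score to 1.14-fold per transcript base and 1.01-fold per coding base. Per base of the whole gene, introns included, it was 1.63-fold. Per transcript base SHPRH was highest in replicates 1 and 2 and lowest in replicate 3. The median listed RNA had 8.76 per 1000 bases, and 80.0%, 81.5% and 76.0% of listed RNAs lay below POLQ, SHPRH and REV1.

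**Figure D3:**
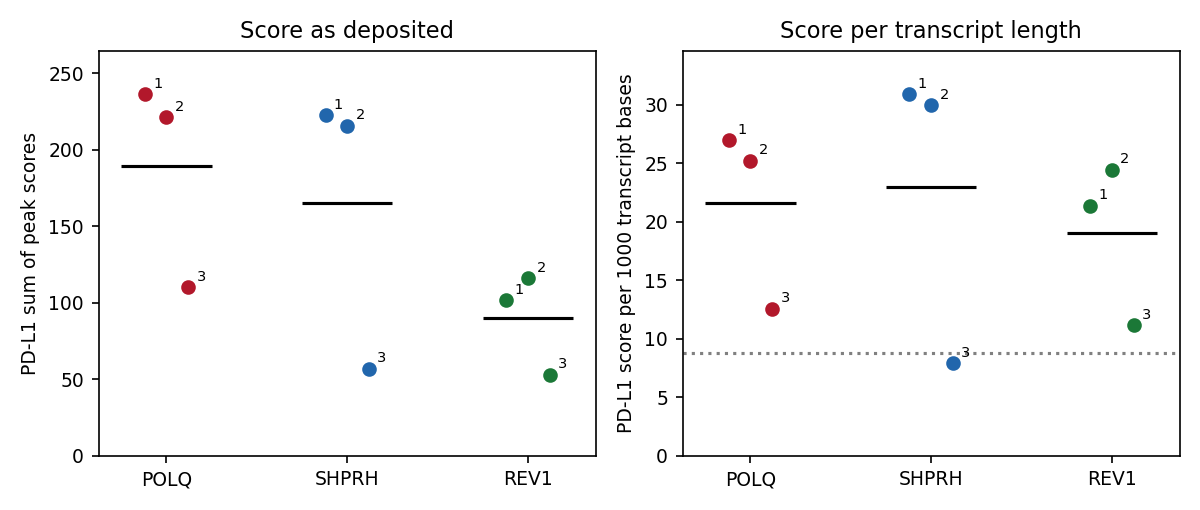
PD-L1 scores of the 3 RNAs as deposited (left) and per 1000 transcript bases (right), with 1 point per library numbered by replicate, a bar at the mean and a dotted line at the table median of 8.76 per 1000 bases. The gap between POLQ and REV1 seen on the left is small on the right, where the points of the 3 RNAs overlap.

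Across the 3129 listed RNAs with a transcript model, the mean PD-L1 score went with exon number (Spearman 0.392) and coding length (0.315). It went less with transcript length (0.196) or the length of the 3′ untranslated region (-0.012). These are descriptions across RNAs, which share their libraries. Among the 170 other listed RNAs with 27 to 33 exons, the median mean PD-L1 score was 71.5, and 26 had a higher one than POLQ and 30 a higher one than SHPRH. In log2 difference 1 of these exceeded POLQ and 5 exceeded SHPRH, where the median was 3.87. For REV1, with 401 other listed RNAs of 20 to 26 exons, 119 had a higher mean PD-L1 score and 19 a higher log2 difference. The 3 RNAs thus scored above the median of RNAs with a like number of exons. They were chosen for a wide gap between PD-L1 and IgG scores, so this place is no separate finding.

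**Figure D4:**
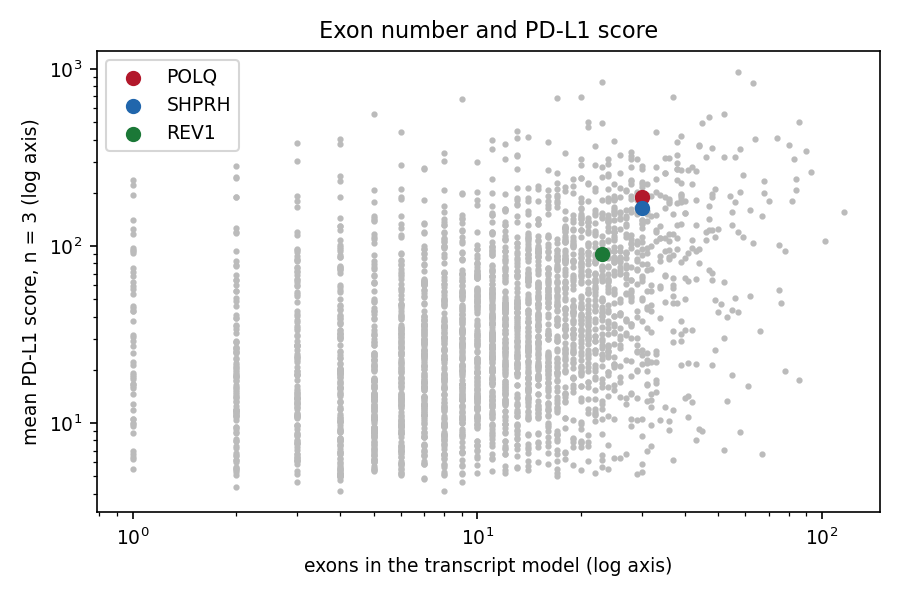
Mean PD-L1 score (vertical, log axis, n = 3 libraries) against exon number of the transcript model (horizontal, log axis), 1 grey point per listed RNA. POLQ and SHPRH, with 30 exons each, and REV1, with 23, lie in the upper part of the points at their exon numbers.

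Other genes lie across each locus on the plus strand in GENCODE 29. The last 852 bases of REV1 overlap the end of EIF5B, a translation initiation factor gene, and 626 bases overlap the antisense gene AC018690.1. For SHPRH 22.3% of the gene overlaps the antisense gene AL356599.1, and 799 bases of POLQ overlap the pseudogene RPL7AP11. None of these 4 symbols was listed. They were sought by GENCODE symbol, so AL356599.1 and AC018690.1 could have been missed if listed under another name. The libraries were stranded per the labels, but whether peaks were scored by strand is not given in the sources used here, so reads of SHPRH and its antisense gene may not have been told apart.

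The RNAs whose scores over the 6 libraries were most like those of each member were found by Euclidean distance on the log2(score + 1) scale. Closest to REV1 was CDKL4 (distance 0.22), with PD-L1 scores of 93.9, 115 and 51.6 and IgG scores of 0, 0 and 3.34. HACE1, SCAPER and LRP2BP were also near, at up to 0.61. Closest to SHPRH was CEP290 (0.49), with 235, 274 and 63.4 against 0, 3.09 and 0, followed by WDR19, KIAA0586, NEK10 and ZMYM1 at up to 1.15. Closest to POLQ was NFRKB (0.86), with 178, 170 and 84.1 against 0, 0 and 4.12, followed by LOC643802, AHI1 and COA6 at up to 1.30. All these matches had 0 in the same IgG libraries as their member, which distances this small require. Among the 3, REV1 was the 7th nearest RNA to POLQ (1.85), while SHPRH was further from both (2.69 from POLQ and 2.97 from REV1), its lone IgG score being in the other library. By Pearson correlation over the 6 libraries only 1, 2 and 1 of the 5 nearest to POLQ, SHPRH and REV1 were the same.

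Beside the 3 RNAs, 10 of 26 other translesion genes were in the table. Of all coding genes with a transcript model, 16.2% were listed; which genes these cells express was not analysed here. The fit in limma, with Benjamini-Hochberg adjustment over the 3152 RNAs, called all 10 higher with PD-L1 and 97.7% of the table. RNAs were listed for a high PD-L1 score over IgG in these same libraries, so these calls, here and below, restate that selection and are no evidence of enrichment. Their median log2 difference of 4.42 compares with 3.42 over the table.

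Of the translesion polymerases, 4 of 9 besides REV1 were listed. POLI, the polymerase iota of the Y family, came nearest to REV1, at 68.6, 66.7 and 21.4 with PD-L1 and 0 in every IgG library (log2 difference 5.56 ± 0.51 SE). POLN, an A-family polymerase like POLQ, was lower and even between libraries, at 27.9, 29.9 and 22.3 against 0 in every IgG library (4.78 ± 0.27). For RNAs at 0 in every IgG library, here and below, the IgG group adds no spread, so a small SE does not show better precision. PRIMPOL, which reprimes synthesis beyond a lesion, was highest in replicate 3, at 25.4, 32.8 and 35.2 against 0, 2.83 and 0 (4.35 ± 0.59). POLH, polymerase eta, which copies past ultraviolet lesions, stood below the table median at 25.4, 29.8 and 19.5 against 0, 7.20 and 2.57 (3.05 ± 0.77). POLK and the subunits of polymerase zeta that bind REV1 (REV3L and MAD2L2, with POLD2 and POLD3) were not among the listed RNAs.

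Of the genes that ubiquitylate PCNA or control it, 6 of 17 besides SHPRH were listed. RAD18, the ligase that places the first ubiquitin on PCNA, scored 80.9, 81.2 and 87.3 against 0, 4.88 and 2.57 (log2 difference 4.93 ± 0.67 SE), and unlike SHPRH it was not lower in replicate 3. ATAD5, which unloads PCNA from chromatin, scored 31.3, 55.7 and 27.6 against 0 throughout (5.23 ± 0.35). DTL, a substrate receptor of a ubiquitin ligase, was at 100, 113 and 45.7 against 0, 6.43 and 5.40 (4.49 ± 0.86). ZRANB3, a translocase that binds ubiquitylated PCNA, scored 7.27, 6.17 and 8.85 against 0 throughout (3.06 ± 0.27). USP1 and WDR48 form the enzyme that removes ubiquitin from PCNA. USP1 scored above SHPRH in every PD-L1 library, at 260, 276 and 57.7, but also had 14.5, 50.2 and 48.4 with IgG. Its log2 difference was therefore 2.25 ± 0.79, and it was -1.31 with rescaled libraries. WDR48 was at 34.1, 39.5 and 16.6 against 0, 8.74 and 4.63 (2.95 ± 0.90). HLTF, the ligase most like SHPRH, was not among the listed RNAs, nor was PCNA itself.

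Around POLQ, 6 of 11 other genes of theta-mediated end joining were listed, against 16.2% of coding genes, and all 6 were called higher, against 97.7% of the table. RBBP8, which starts resection of DNA ends, scored 74.5, 69.1 and 48.0 against 0, 5.14 and 0 (log2 difference 5.12 ± 0.77 SE). HELQ, a helicase related to that of POLQ, scored 38.0 and 49.1 in replicates 1 and 2 but 6.55 in replicate 3, against 0 throughout (4.62 ± 0.74). RAD50 and NBN, of the complex that senses broken ends, differed by 3.84 ± 1.11 and 3.72 ± 0.76. XRCC1 and LIG3, a scaffold and a ligase that act at nicks, differed by 2.93 ± 0.67 and 2.02 ± 0.36, with LIG3 at 25.4, 20.0 and 11.9 against 3.32, 4.37 and 3.60. LIG3 was the lowest of the listed pathway RNAs, and its difference turned to -1.25 with rescaled libraries.

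Of the replicative and other polymerases, 7 of 22 genes were listed, against 16.2% of coding genes, and 6 were called higher, against 97.7% of the table, with a median log2 difference of 3.38. POLG2, the accessory subunit of the mitochondrial polymerase, scored 48.6, 51.5 and 38.2 against 0, 0 and 2.57 (log2 difference 4.93 ± 0.57 SE), the same IgG scores as POLQ. POLE2, a subunit of polymerase epsilon, differed by 3.93 ± 0.53, POLA1, of the primase complex, by 3.69 ± 0.89 and POLL, a gap-filling polymerase, by 3.38 ± 1.20. The clamp loader subunits RFC1 and RFC4 differed by 2.95 ± 0.71 and 2.47 ± 0.50 and were negative with rescaled libraries (-0.57 and -0.85). POLB, the polymerase of base excision repair, did not pass (3.05 ± 1.35) with scores of 143, 161 and 5.13 against 3.93, 3.09 and 11.6, and was at -0.30 with rescaled libraries.

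Over the 4 lists, 22 of the 23 listed genes other than POLQ, SHPRH and REV1 were called higher, against 97.7% of the table, and 0 lower, with 0 lower at an unadjusted p under 0.05 over the whole table. PD-L1 replicate 3 was below the mean of replicates 1 and 2 in 20 of the 23. Without it all 23 were called higher, POLB included (4.59), against 90.6% of the table. Without PD-L1 replicate 1 or 2 the count was 18, since USP1, WDR48, RAD50 and POLL no longer passed. The share of the table called higher was then 87.8% and 86.6%. Without IgG replicate 1 the count was 21, against 94.3% of the table, since USP1 did not pass (1.69). With libraries rescaled so that their listed scores had equal sums, 6 of the 23 were called higher, against 31.4% of the table. LIG3 was called lower (-1.25), against 1.9% of the table. Equal sums lower the PD-L1 scores of a list selected for them, so this call does not show more LIG3 RNA with IgG. With pseudocounts of 0.1 and 0.01 the count called higher was 18 and 14, against 88.8% and 72.9% of the table. The 6 called with rescaling were POLI, POLN, ATAD5, ZRANB3, HELQ and POLE2, which are the RNAs of the 23 at 0 in every IgG library. The log2 differences of POLQ, SHPRH and REV1 with rescaled libraries were 5.38, 5.08 and 4.28, while the table median fell by 1.66. Relative to the table median they were 3.62, 3.32 and 2.52, against 3.46, 3.15 and 2.37 as deposited.

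**Figure D5:**
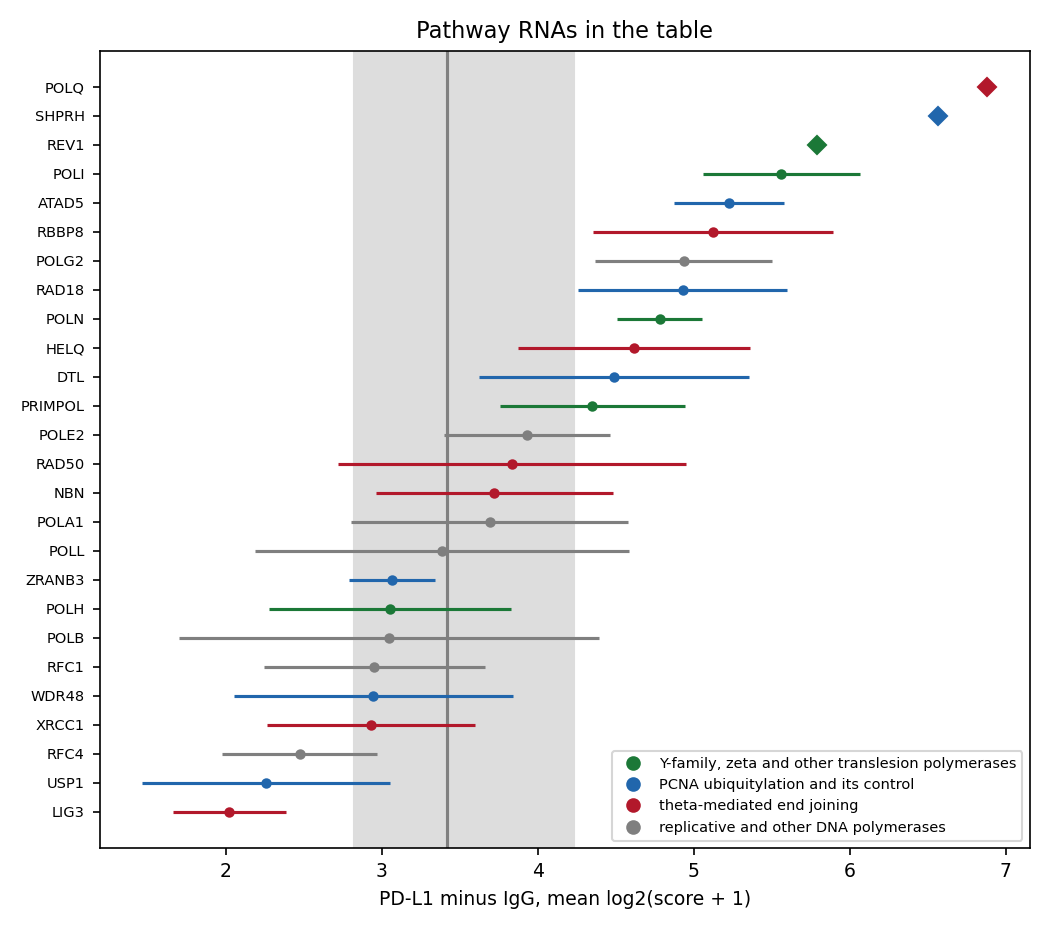
Difference of group means on the log2(score + 1) scale (horizontal axis) for the listed genes of the 4 lists, coloured by list, with bars of 1 SE from limma and n = 3 libraries per group. Diamonds without bars mark POLQ, SHPRH and REV1, which were chosen for this value; the grey line and band are the table median of 3.42 and its quartiles of 2.82 and 4.23.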

How the data were processed

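Per the file headers, the authors' deposited table holds a score, the sum of peak scores per gene, in 3 PD-L1 and 3 IgG libraries. HOMER 4.8.3, TopHat2 2.0.14 and the build hg19 appear in the submitters' processing notes with no role, and peak settings were not found in the labels or headers. The design assumed scores and was used as written. Differences of log2(score + 1) were compared by limma 3.58.1 (R 4.3.3) over all 3152 RNAs, with Benjamini-Hochberg adjustment at 0.05, and the fit was tested on simulated data. POLQ, SHPRH and REV1, the 4 gene lists and the naming rule were chosen with earlier results of these data known. The rule names the 3 genes, every listed gene of the 4 lists, the 5 nearest RNAs of each and its neighbours by log2 difference. Of the nearest RNAs, 1 is not reported here. Genes of the 4 lists and transcript models were matched by Entrez identifier, and overlapping genes by symbol. Transcript models (best APPRIS grade, then longest coding sequence) came from GENCODE 29, on GRCh38 rather than hg19. Only lengths, exon numbers, composition, printed stretches and the positions and strands of genes were taken from it. The overlaps between genes are thus those on GRCh38. Alternatives were other pseudocounts, a floor for scores of 0, rescaled libraries, a minimum mean score of 10, leaving out each library, and a replicate block.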

Additional observations from a re-analysis of the deposited data

How the results depend on the processing

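The differences of POLQ, SHPRH and REV1 were positive under every alternative run. These RNAs were chosen for a wide gap over IgG scores near 0, so the sign alone is no support. With a pseudocount of 0.1 their log2 differences were 9.23, 8.92 and 8.12, with 0.01 they were 11.5, 11.2 and 10.3, and with rescaled libraries 5.38, 5.08 and 4.28. Leaving out 1 library gave 6.58 to 7.50 for POLQ, 6.23 to 7.21 for SHPRH and 5.47 to 6.44 for REV1. The median of the 10 other translesion RNAs was 6.23, 8.12 and 2.54 under the first 3 alternatives, and 3.79 to 4.89 with 1 library left out. Their count called higher fell from 10 to 8 and 6 with pseudocounts of 0.1 and 0.01, against 88.8% and 72.9% of the table. With rescaled libraries it was 4, against 31.4% of the table. With 1 library left out it was 8 to 10, against 86.6% to 96.2% of the table. The table count fell from 3078 to 990 with rescaled libraries, with 60 lower, and was 2730 to 3032 with 1 library left out. With rescaled libraries USP1 (-1.31), LIG3 (-1.25), RFC4 (-0.85), RFC1 (-0.57) and POLB (-0.30) reversed. Rescaling sets equal sums over RNAs selected for higher PD-L1 scores, so it lowers PD-L1 against IgG by construction. These reversals are therefore no evidence of more RNA with IgG, and what else added to them was not tested. Rank by log2 difference ran over all alternatives from 3 to 201 for POLQ, 10 to 286 for SHPRH and 45 to 559 for REV1, lowest with a pseudocount of 0.01, under which RNAs at 0 in every IgG library gain most. Same-numbered libraries deviated from their group means with correlations of -0.12, 0.071 and -0.079, and the numbers were not taken as pairs. With 68.2%, 45.7% and 44.3% of scores at 0 in IgG replicates 1 to 3, such correlations cannot exclude pairing. With the replicate block the count of translesion RNAs called higher was again 10, and the table count was 3091 against 3078 without it. Depth is unknown, and 3 libraries per group limit every value.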
